A study of Mus musculus with 9 samples.

Results

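The genes of replication origins and forks were followed in the regenerating mouse liver. They are 45 named genes that encode the proteins that license and fire replication origins, synthesise DNA, load the sliding clamp, protect the fork and reassemble chromatin behind it. They were chosen by gene name from the 43346 genes listed in the deposited table. All 45 were found, and all 45 passed the filter on low counts, which left 15024 genes in the tests.

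Whole liver of male C57BL/6J mice aged 12 weeks was studied by bulk RNA-Seq in 3 groups of 3 libraries. The baseline group is the resection specimen removed from vehicle-treated mice at the 70% partial hepatectomy (time 0 h), and the vehicle-treated group is the liver remnant taken 40 hours after hepatectomy from mice given vehicle only. The NSC-treated group is the remnant at 40 hours from mice given NSC-87877 (NSC), an inhibitor of the tyrosine phosphatases SHP1 and SHP2, at 7.5 mg/kg per dose and 15 mg/kg per day. By the sample labels, dosing began 12 h before surgery in all groups and went on until the tissue was taken. No genetic change was made in any group. A resection specimen from NSC-treated mice was not analysed here, so each group at 40 hours was set against the 3 vehicle baselines, and an effect of NSC before surgery cannot be told apart from one after it. The design asks which of these genes changed after hepatectomy under each treatment, and whether the NSC-treated remnant differed from the vehicle-treated remnant.

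DNA replication starts at origins that are licensed in G1, when the origin recognition complex, Cdc6 and Cdt1 load the MCM helicase. In S phase the kinase of Cdc7 and Dbf4 and a set of firing factors, among them Ticrr (treslin), Cdc45 and the GINS complex, turn the loaded helicase into an active fork. Polymerase alpha-primase then lays down primers, polymerase epsilon and polymerase delta extend the leading and lagging strands, and the PCNA clamp, loaded by replication factor C, holds the polymerases on DNA. Most hepatocytes of the adult liver are quiescent, and after partial hepatectomy many of them re-enter the cell cycle and pass through S phase.

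Library totals were 31187349 to 33943842 counts at baseline, 27956396 to 42887589 in vehicle-treated mice and 23997363 to 30201051 in NSC-treated mice. The 45 genes together took 282, 289 and 296 CPM (counts per 1000000, here of the unscaled library total) at baseline, 586, 566 and 551 CPM in vehicle-treated mice, and 625, 832 and 814 CPM in NSC-treated mice. Values per library from here on are CPM after TMM scaling, which adjusts library totals for composition. On that scale the sums were 293 to 305 CPM at baseline, 555 to 629 CPM with vehicle, and 566, 813 and 765 CPM with NSC. The sum was higher in every 40-hour library than in any baseline library on both scales, and after TMM scaling NSC replicate 1 lay within the vehicle range. In whole liver, more replicating cells and more RNA of these genes per cell cannot be told apart. Log2 fold changes, their standard errors (SE) and Benjamini-Hochberg adjusted p come from edgeR's quasi-likelihood test over all 15024 genes. Nothing in the labels states whether a library is 1 mouse or a pool, so the p-values measure the spread between these libraries. Nor do the labels state whether a baseline specimen and a vehicle-treated remnant came from the same mouse.

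At 40 hours after hepatectomy, 34 of the 45 genes rose from baseline in vehicle-treated mice (edgeR adjusted p under 0.05) and none fell. Over all genes tested, 12.7% rose and 11% fell. In NSC-treated mice 40 of 45 rose and 1, *Pold2*, fell, where 18.2% of all genes rose and 16.5% fell. The median log2 fold change of the 45 genes was 1.53 with vehicle and 1.81 with NSC, against 0.013 over all genes in either comparison. A rise of more than 1.5 on the log2 scale was passed by 24 genes with vehicle (5.03% of all genes) and by 27 with NSC (5.38% of all genes). The libraries of the groups did not overlap, with the remnant higher, for 38 genes with vehicle (24.2% of all genes) and 40 with NSC (24% of all genes). The same 33 genes rose in both treatments, *Pold1* rose with vehicle without passing the test with NSC, and *Orc4*, *Orc5*, *Gmnn*, *Gins4*, *Rfc1*, *Rfc3* and *Rpa3* rose with NSC without passing it with vehicle. *Orc3*, *Pola2*, *Pold2* and *Dna2* rose in neither. *Orc1*, *Cdc6*, *Cdc7*, *Ticrr*, *Pole2* and *Clspn* did not reach the filter's minimum of 10 counts, scaled to depth, in every baseline library, so they passed the filter through the 40-hour libraries and are no support for a rise of the list. They are part of the counts and medians given here. With at least 10 counts required in every library, the median log2 fold change was 1.20 with vehicle and 1.57 with NSC. A call in one treatment and not in the other is not a difference between them; that difference is tested directly further on.

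Markers of the liver's cell types moved over the same interval. Of 8 hepatocyte markers, among them *Alb* and *Hnf4a*, 2 fell with vehicle and 3 with NSC and none rose, and their summed CPM was 117355 to 124425 at baseline, 95012 to 130896 with vehicle and 101093 to 115252 with NSC. Of 7 stellate cell markers 4 rose with vehicle and 2 with NSC, and their sum went from 196.5 to 235 CPM at baseline to 376 to 509 and 242 to 439 CPM. Of 5 cholangiocyte markers 4 and 3 rose, with sums of 37.8 to 40.6, 76.0 to 114 and 79.0 to 121 CPM. Of 6 macrophage markers 2 and 4 rose, with sums of 144 to 208, 141 to 258 and 278 to 447 CPM. No endothelial, lymphocyte or erythroid marker rose in either treatment. Of 6 tested in each of these lists, 1, 1 and 2 fell with vehicle and 0, 0 and 2 with NSC, and the lymphocyte markers *Cd3e* and *Cd8a* were each at 0 in 1 of the 9 libraries. Their summed CPM was 173 to 180 (endothelial), 6.02 to 14.9 (lymphocyte) and 183 to 246 (erythroid) at baseline, 110 to 177, 5.79 to 8.78 and 82.4 to 133 with vehicle, and 127 to 226, 8.45 to 16.4 and 86.7 to 168 with NSC. The part of these cells in the rise of the 45 genes was not tested.

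**Figure D1:**
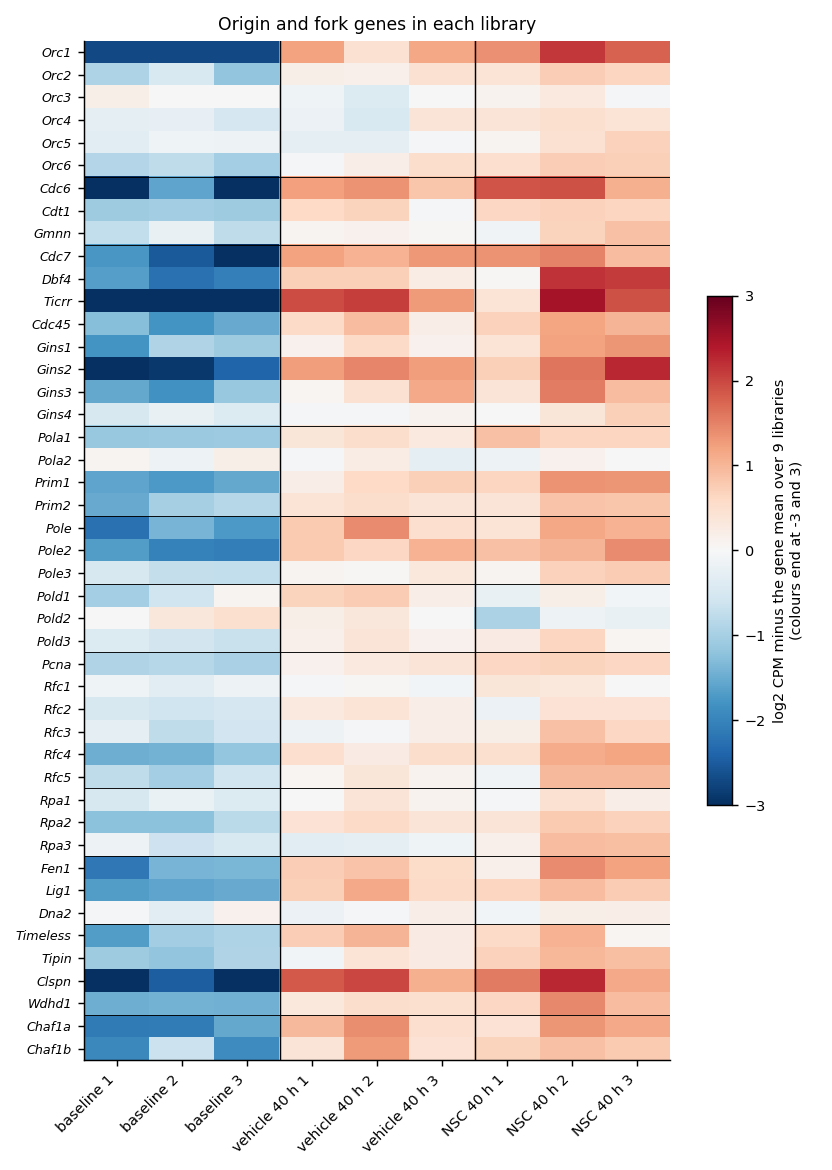
Heat map of the 45 genes (rows, grouped by role and separated by lines) in the 9 libraries (columns), coloured by log2 CPM minus the gene's mean over all libraries, with colours ending at -3 and 3. Baseline libraries are blue for most rows and the 40-hour libraries red, *Orc3*, *Pola2* and *Dna2* are pale throughout, and NSC replicate 1 is paler than NSC replicates 2 and 3 in many rows.

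The regions around the start sites of these genes were searched for the 8-letter E2F-type motif, a sequence recognised by the E2F family of cell cycle transcription factors. The letters searched were TTTCCCGC, TTTGGCGC, TTTCGCGC and TTTGCCGC on both strands, in a window of 250 bases before to 50 bases after the RefSeq start site. RefSeq promoters (GRCm38.p6) matched 37 of the 45 genes, and 12 of the 37 (32.4%) held the motif, against 4.47% of the 10297 tested genes that had a promoter. It lay before the start in *Orc1*, *Orc3*, *Gins3*, *Rfc3*, *Cdc6* and *Pola1*. In *Clspn*, *Cdt1*, *Lig1*, *Pold1*, *Pold3* and *Pole2* it lay only across the start or after it. On the gene's own strand alone, 10.8% of the 37 and 2.37% of all genes held it. Among the 27 matched genes that rose in both treatments 9 (33.3%) held the motif, and among the 10 that did not pass in one or both, 3 (30%) held it. The CHR-type element (TTTGAA or TTCGAA, both strands) was found in 18.9% of the 37 genes and 16.7% of all genes, and the CCAAT box in 48.6% and 42.9%. These matches are a description of letters in a window.

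The following 4 stretches of 30 bases show the motif in capitals near the RefSeq start of the gene. *Orc1* had the largest fitted rise of the 45, and *Orc3* did not pass the test in either treatment. The stretches are read 5′ to 3′ along the gene's strand. The first base of the motif lies 27 bases before the RefSeq start in *Orc1*, 41 in *Orc3*, 41 in *Gins3* and 10 in *Rfc3*. The deposited gene positions start at chr4:108579423 for *Orc1* and at chr5:151651242 for *Rfc3*, so by them both motifs lie just after the start.
Orc1 (chr4:108579416-108579445, + strand): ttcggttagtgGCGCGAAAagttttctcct
Orc3 (chr4:34614965-34614994, − strand): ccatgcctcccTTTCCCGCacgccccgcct
Gins3 (chr8:95633507-95633536, + strand): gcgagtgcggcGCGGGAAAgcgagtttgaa
Rfc3 (chr5:151651209-151651238, − strand): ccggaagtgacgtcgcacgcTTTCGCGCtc

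The 150 bases before the start of 4 further genes set the motif against the response in another way. *Cdc6* and *Pola1* held the motif, its first base 138 bases before the RefSeq start in both, and rose. The deposited position of *Cdc6* starts at chr11:98907801, so by it the stretch shown lies inside the gene. *Ticrr* and *Pola2*, the partner subunit of *Pola1*, held none in the stretch, and *Ticrr* rose while *Pola2* did not pass the test. The part of the motif in the changes of these genes was not tested.
Cdc6 (chr11:98908001-98908150, + strand): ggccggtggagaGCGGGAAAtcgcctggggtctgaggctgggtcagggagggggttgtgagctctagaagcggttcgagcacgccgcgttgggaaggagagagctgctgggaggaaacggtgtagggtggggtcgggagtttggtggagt
Pola1 (chrX:93632156-93632305, − strand): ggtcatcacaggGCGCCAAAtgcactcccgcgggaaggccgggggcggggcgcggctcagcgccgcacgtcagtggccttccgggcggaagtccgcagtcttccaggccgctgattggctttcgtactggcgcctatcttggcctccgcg
Ticrr (chr7:79660046-79660195, + strand): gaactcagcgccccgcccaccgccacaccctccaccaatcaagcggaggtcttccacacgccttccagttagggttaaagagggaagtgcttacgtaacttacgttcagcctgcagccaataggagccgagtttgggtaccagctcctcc
Pola2 (chr19:5964207-5964356, − strand): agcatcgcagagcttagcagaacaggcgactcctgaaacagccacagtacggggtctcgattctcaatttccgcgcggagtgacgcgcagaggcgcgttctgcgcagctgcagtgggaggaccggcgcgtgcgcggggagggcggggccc

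The origin recognition complex marks origins and is the platform for licensing. Of its 6 genes, *Orc1*, *Orc2* and *Orc6* rose with vehicle, and these and *Orc4* and *Orc5* rose with NSC, with medians of 0.71 and 1.11. *Orc1*, its largest subunit and an ATPase, had no count in any baseline library. It was at 0.876, 0.492 and 0.849 CPM with vehicle and at 0.99, 1.70 and 1.33 CPM with NSC. Against a floor of 3 counts over the baseline group it was at least 23.0-fold higher with vehicle and at least 41.8-fold higher with NSC. *Orc1* passed the filter through the remnant libraries, and with no baseline count it could only rise. Its test is therefore no support for a rise of the complex, although *Orc1* is part of the calls and medians given here. *Orc3*, a core subunit, was at 20.4, 17.9 and 18.4 CPM at baseline, at 16.7, 13.6 and 18.5 CPM with vehicle and at 19.4, 22.2 and 17.7 CPM with NSC. The groups of *Orc3* overlapped, its log2 fold changes were -0.22 (SE 0.16) and 0.06 (SE 0.16), and the 95% intervals reached from -0.56 to 0.12 and from -0.28 to 0.41.

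*Orc2* and *Orc6* rose by 1.11 and 1.14 on the log2 scale with vehicle and by 1.45 and 1.56 with NSC. *Orc4* had a log2 fold change of 0.31 with vehicle, and its rise of 0.77 with NSC (edgeR adjusted p = 0.0118) did not pass without baseline replicate 3, where it was 0.70 (adjusted p = 0.0529). *Orc5* was at 14.1, 16.3 and 16.3 CPM at baseline, at 14.7, 14.9 and 17.4 CPM with vehicle and at 19.0, 24.6 and 29.2 CPM with NSC. Every NSC library was above all 6 others, and its log2 fold change was 0.01 with vehicle and 0.64 with NSC (edgeR adjusted p = 0.0129). Without baseline replicate 1 the latter was 0.57 (adjusted p = 0.0563). Exons of *Orc5* overlap the transcribed pseudogene *Gm15421* on the same strand, so its reads could be split between them. The pseudogene had 161 to 221 counts per library at baseline and 249 to 494 at 40 hours.

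The licensing factors *Cdc6* and *Cdt1* bring the helicase to the origin, and geminin (*Gmnn*) inhibits *Cdt1* protein. *Cdc6* was at 0.0632, 0.428 and 0.099 CPM at baseline, at 3.38, 3.63 and 2.55 CPM with vehicle and at 5.31, 5.43 and 2.97 CPM with NSC. Its libraries at 40 hours were all above baseline, and it rose by 3.98 (SE 0.52) and 4.50 (SE 0.52) on the log2 scale. *Cdc6* passed the filter through the 40-hour libraries. *Cdt1* rose by 1.54 and 1.74. *Gmnn* was at 6.76, 9.65 and 6.70 CPM at baseline, at 12.0, 12.4 and 11.7 CPM with vehicle and at 10.5, 18.1 and 20.9 CPM with NSC. No baseline library reached a 40-hour one, but the log2 fold change of 0.64 with vehicle missed the threshold (edgeR adjusted p = 0.0712), while the rise of 1.10 with NSC passed it (adjusted p = 0.00457). The vehicle value passed without baseline replicate 2 (0.84, adjusted p = 0.0419) and without NSC replicate 1, which shares the estimate of spread (0.65, adjusted p = 0.0126), as well as with only baseline and vehicle fitted (0.65, adjusted p = 0.0182), with every gene of at least 1 count (0.64, adjusted p = 0.0458) and with a replicate block (0.66, adjusted p = 0.0487).

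The firing genes turn a licensed origin into a pair of forks. With vehicle 7 of 8 rose, with a median of 2.37, and with NSC all 8 rose, with a median of 3.16. *Cdc7* and *Ticrr* are among these 8 and passed the filter through the 40-hour libraries. *Ticrr*, the treslin gene that brings Cdc45 to the helicase, had 0, 0.0305 and 0.033 CPM at baseline, 3.28, 3.52 and 1.99 CPM with vehicle and 1.08, 4.79 and 3.13 CPM with NSC. It had 2 counts over the baseline group, and the ratio of pooled CPM to baseline was 144 with vehicle (95% counting interval 39.5 to 1193) and 138 with NSC (37.8 to 1144), where the intervals cover counting error only. *Cdc7*, the catalytic subunit of the firing kinase, rose by 3.95 and 4.05 on the log2 scale.

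*Dbf4*, the activating subunit of that kinase, was at 3.06, 2.05 and 2.34 CPM at baseline, at 16.1, 16.1 and 11.4 CPM with vehicle and at 10.05, 44.7 and 42.3 CPM with NSC. It rose by 2.55 (SE 0.53) and 3.70 (SE 0.54), and NSC replicate 1 lay below every vehicle library while NSC replicates 2 and 3 lay above every one. *Cdc45*, which travels with the helicase, rose by 2.16 and 2.54. Of the 4 GINS genes, *Gins1*, *Gins2* and *Gins3* rose by 1.52, 4.28 and 2.19 with vehicle and by 2.26, 4.61 and 2.61 with NSC. *Gins4* was at 10.8, 12.9 and 11.3 CPM at baseline, at 14.7, 14.7 and 16.1 CPM with vehicle and at 14.9, 19.2 and 24.8 CPM with NSC. Its 40-hour libraries were all above baseline, with a log2 fold change of 0.38 with vehicle (edgeR adjusted p = 0.151) and a rise of 0.75 with NSC (adjusted p = 0.00826).

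**Figure D2:**
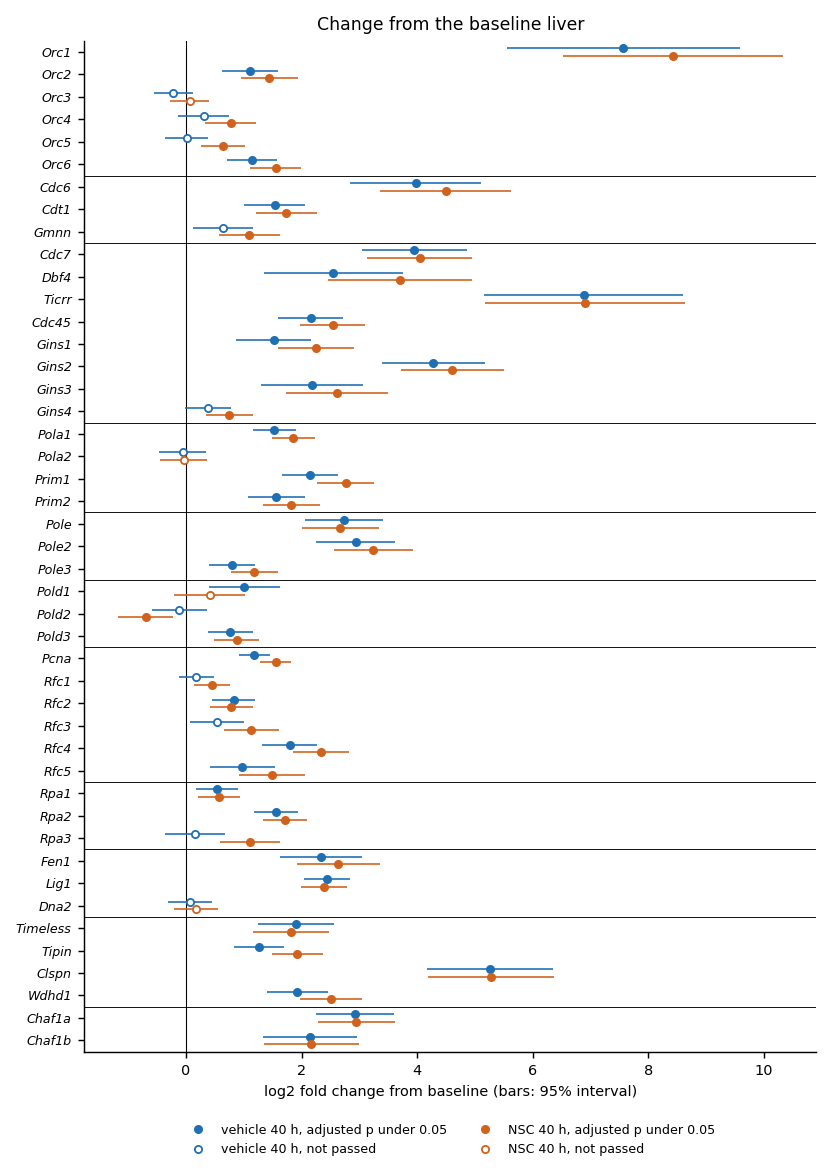
Log2 fold change from baseline (horizontal axis) of each gene with vehicle (blue) and NSC (orange) at 40 hours, with bars for the 95% interval and filled points for adjusted p under 0.05. The points run from -0.22 (*Orc3*) to 7.57 (*Orc1*) with vehicle and from -0.70 (*Pold2*) to 8.43 (*Orc1*) with NSC. The *Orc1* points are model estimates from 0 baseline counts and are no bound.

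Polymerase alpha-primase is the only enzyme of the fork that starts a strand anew. *Prim1*, the catalytic primase, was at 3.25, 2.93 and 3.37 CPM at baseline, at 11.3, 14.9 and 16.2 CPM with vehicle and at 15.3, 25.1 and 24.7 CPM with NSC. It rose by 2.15 (SE 0.22) and 2.77 (SE 0.23) on the log2 scale. *Pola1*, the catalytic polymerase subunit, rose by 1.53 and 1.86, and *Prim2*, the large primase subunit, by 1.56 and 1.83. *Pola2*, the accessory subunit, was at 8.75, 7.48 and 9.30 CPM at baseline, at 7.98, 9.69 and 6.87 CPM with vehicle and at 7.44, 9.03 and 8.37 CPM with NSC. Its groups overlapped throughout, with log2 fold changes of -0.06 (95% interval -0.46 to 0.35) and -0.04 (-0.45 to 0.37).

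Polymerase epsilon copies the leading strand, and *Pole*, *Pole2* and *Pole3* rose in both treatments, where *Pole2* passed the filter through the 40-hour libraries. *Pole4*, a further subunit that is not among the 45 genes, had log2 fold changes of 0.24 (edgeR adjusted p = 0.356) and 0.43 (adjusted p = 0.0804). *Pole2*, the second subunit, was at 0.411, 0.305 and 0.297 CPM at baseline, at 2.55, 2.25 and 3.06 CPM with vehicle and at 2.73, 2.99 and 3.99 CPM with NSC. It rose by 2.94 (SE 0.31) and 3.24 (SE 0.32). *Pole*, the catalytic subunit, rose by 2.73 and 2.67. *Pole3*, a histone-fold subunit also found in a chromatin remodelling complex, was at 20.9, 17.8 and 17.5 CPM at baseline, at 31.0, 29.9 and 36.9 CPM with vehicle and at 31.0, 47.3 and 49.5 CPM with NSC. Its rise was smaller, 0.80 (SE 0.18) and 1.18 (SE 0.18), with no overlap between baseline and 40 hours.

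Polymerase delta copies the lagging strand, and its 3 genes among the 45 had different values. *Pold3*, an accessory subunit, rose by 0.77 with vehicle and 0.88 with NSC. *Pold1*, the catalytic subunit, was at 2.78, 3.76 and 6.01 CPM at baseline, at 9.03, 9.61 and 6.57 CPM with vehicle and at 4.86, 6.45 and 5.36 CPM with NSC. It rose with vehicle by 1.01 (SE 0.28, edgeR adjusted p = 0.0212), and with NSC its libraries overlapped baseline, with a log2 fold change of 0.41 (SE 0.28, adjusted p = 0.276). The rise with vehicle did not pass without baseline replicate 1 (0.79, adjusted p = 0.0832), baseline replicate 2 (0.94, adjusted p = 0.0626), vehicle replicate 1 (0.96, adjusted p = 0.0672) or vehicle replicate 2 (0.91, adjusted p = 0.0714).

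*Pold2*, the subunit that bridges *Pold1* and *Pold3* proteins, was at 11.7, 14.8 and 16.4 CPM at baseline, at 13.1, 14.9 and 11.5 CPM with vehicle and at 5.9996, 10.5 and 9.90 CPM with NSC. All 3 NSC libraries were below all 6 others. Its log2 fold change was -0.12 (SE 0.22) with vehicle, and with NSC it fell by 0.70 (SE 0.22, edgeR adjusted p = 0.0284). The fall did not pass without baseline replicate 2 (-0.67, adjusted p = 0.0666), baseline replicate 3 (-0.59, adjusted p = 0.114) or NSC replicate 1 (-0.48, adjusted p = 0.066), or when libraries were scaled by their totals alone (-0.57, adjusted p = 0.0542) or baseline and NSC were fitted without the vehicle remnants (-0.69, adjusted p = 0.056).

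*Pcna*, the sliding clamp, was at 19.4, 19.9 and 18.4 CPM at baseline, at 39.5, 44.5 and 47.1 CPM with vehicle and at 56.0, 57.4 and 55.6 CPM with NSC. The 3 groups did not overlap, and it rose by 1.18 (SE 0.13) and 1.55 (SE 0.13) on the log2 scale. A near-identical copy, *Pcna-ps2*, had 27 to 47 counts per library at baseline and 70 to 149 at 40 hours, so some reads of *Pcna* could have been assigned to it. Replication factor C opens the clamp and closes it around DNA. *Rfc4* was at 2.53, 2.63 and 3.13 CPM at baseline, at 10.04, 8.40 and 10.3 CPM with vehicle and at 10.02, 15.4 and 16.3 CPM with NSC, a rise of 1.79 (SE 0.22) and 2.33 (SE 0.22). *Rfc2* rose by 0.83 and 0.79.

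*Rfc5* rose by 0.97 with vehicle (edgeR adjusted p = 0.018) and 1.49 with NSC, and the vehicle value did not pass without baseline replicate 1 (0.98, adjusted p = 0.0567), baseline replicate 2 (0.87, adjusted p = 0.0605) or vehicle replicate 2 (0.88, adjusted p = 0.0611). *Rfc3* had a log2 fold change of 0.54 with vehicle (adjusted p = 0.0892), which passed without NSC replicate 1 (0.54, adjusted p = 0.0396) and with only baseline and vehicle fitted (0.54, adjusted p = 0.0487), and rose by 1.13 with NSC. *Rfc1*, the large subunit, moved least, at 25.1, 21.5 and 24.4 CPM at baseline, 26.7, 27.9 and 25.8 CPM with vehicle and 35.3, 33.8 and 27.6 CPM with NSC. Its baseline libraries were below all others by small gaps, with log2 fold changes of 0.18 with vehicle (adjusted p = 0.376) and 0.45 with NSC (adjusted p = 0.0267). The latter lay between 0.38 and 0.49 and did not pass without baseline replicate 1, 2 or 3 or NSC replicate 1 or 2 (adjusted p 0.0516, 0.0969, 0.068, 0.065 and 0.0812).

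Replication protein A coats single-stranded DNA. *Rpa2* was at 5.69, 5.65 and 7.66 CPM at baseline, at 18.2, 19.9 and 17.6 CPM with vehicle and at 17.7, 23.1 and 21.9 CPM with NSC. It rose by 1.55 (SE 0.17) and 1.72 (SE 0.17), well clear of baseline. *Rpa1*, the main DNA-binding subunit, rose by 0.53 (edgeR adjusted p = 0.036) and 0.57 (adjusted p = 0.0193). Its vehicle value did not pass without baseline replicate 1 (0.48, adjusted p = 0.127), baseline replicate 3 (0.51, adjusted p = 0.11), vehicle replicate 2 (0.41, adjusted p = 0.129) or vehicle replicate 3 (0.57, adjusted p = 0.0656), and its NSC value did not pass without baseline replicate 1 (0.52, adjusted p = 0.0748), baseline replicate 3 (0.55, adjusted p = 0.0697) or NSC replicate 2 (0.44, adjusted p = 0.0895). *Rpa3*, the smallest subunit, was at 5.12, 3.69 and 4.19 CPM at baseline, at 4.53, 4.74 and 5.24 CPM with vehicle and at 6.33, 10.97 and 10.8 CPM with NSC. The vehicle libraries overlapped baseline (0.16, SE 0.24) and all NSC libraries lay above both, with a rise of 1.11 (SE 0.24, adjusted p = 0.00447).

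Okazaki fragments of the lagging strand are trimmed by the nucleases *Fen1* and *Dna2* and joined by DNA ligase 1 (*Lig1*). *Lig1* was at 3.35, 3.54 and 3.73 CPM at baseline, at 17.6, 23.8 and 16.1 CPM with vehicle and at 16.9, 20.6 and 18.2 CPM with NSC. It rose by 2.44 (SE 0.19) and 2.39 (SE 0.19), and *Fen1* by 2.34 and 2.64. *Dna2* was at 11.9, 9.62 and 13.4 CPM at baseline, at 10.9, 11.7 and 14.0 CPM with vehicle and at 11.6, 13.8 and 14.1 CPM with NSC. Its groups overlapped, with log2 fold changes of 0.07 (95% interval -0.31 to 0.45) and 0.18 (-0.20 to 0.55).

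The fork protection genes rose without exception in both treatments, where *Clspn* passed the filter through the remnant libraries. *Clspn* (claspin, which links a stalled fork to the checkpoint kinase) was at 0.0948, 0.305 and 0.099 CPM at baseline, at 7.33, 8.21 and 4.21 CPM with vehicle and at 5.94, 9.71 and 4.42 CPM with NSC. It rose by 5.26 (SE 0.50) and 5.28 (SE 0.50), after *Orc1* and *Ticrr* the largest values of the 45. *Tipin*, the partner of *Timeless*, was at 3.13, 2.87 and 3.46 CPM at baseline, at 6.16, 8.81 and 7.75 CPM with vehicle and at 10.6, 13.1 and 12.3 CPM with NSC. The 3 groups did not overlap, and it rose by 1.26 (SE 0.20) and 1.93 (SE 0.20). *Timeless* rose by 1.91 and 1.81, and *Wdhd1*, which tethers polymerase alpha to the fork, by 1.93 and 2.51.

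Chromatin assembly factor 1 places histones on the new DNA. *Chaf1a*, its large subunit, was at 1.71, 1.71 and 2.57 CPM at baseline, at 14.8, 19.9 and 10.7 CPM with vehicle and at 10.3, 19.2 and 16.9 CPM with NSC. It rose by 2.93 (SE 0.31) and 2.95 (SE 0.31). *Chaf1b* was at 1.14, 2.90 and 1.19 CPM at baseline, at 5.96, 11.2 and 6.20 CPM with vehicle and at 7.32, 8.39 and 7.94 CPM with NSC, a rise of 2.15 (SE 0.37) and 2.17 (SE 0.37). The direct difference between NSC and vehicle was 0.02 for each, with 95% intervals from -0.58 to 0.62 and from -0.74 to 0.77.

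In most of the complexes the listed subunits stood farther apart in level at baseline than at 40 hours. Levels of different genes were compared per length, as reads per kilobase of gene length and library total (FPKM). *Pole4* and *Pold4* are not among the 45 genes and do not enter the values of polymerase epsilon and delta. In the GINS complex, the mean of the highest subunit, *Gins4*, was 59.8 times that of the lowest, *Gins2*, at baseline, and the highest subunit was 10.5 times the lowest with vehicle and 10.1 times with NSC. For polymerase epsilon this ratio was 46.1 at baseline, 10.998 with vehicle and 14.7 with NSC. Its lowest subunit at baseline, *Pole2* (mean 0.192 FPKM), passed the filter through the 40-hour libraries, and *Pole* was at 0.214 FPKM. For polymerase delta the ratio was 8.75, 4.003 and 4.05, for polymerase alpha-primase 7.88, 3.35 and 4.08, and for replication protein A 2.58, 1.85 and 1.18. Replication factor C did not follow with vehicle, with ratios of 8.48, 10.4 and 6.67.

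The same was measured in each library as the standard deviation (SD) of log2(FPKM + 0.01) over the subunits. For GINS it was 2.72, 2.88 and 2.45 at baseline, 1.61, 1.47 and 1.24 with vehicle, and 1.57, 1.25 and 1.59 with NSC, so every 40-hour library was below every baseline library. The exact two-sided permutation test gave p = 0.1, the smallest that 3 libraries against 3 allow, for every complex against baseline in both treatments except replication factor C (p = 0.7) and replication protein A (p = 0.2) with vehicle. The origin recognition complex went from a mean of 3.27 at baseline to 1.68 with vehicle and 1.56 with NSC. Its p includes *Orc1*, which is listed at 0 at baseline, so that its baseline value is the pseudocount alone. Without *Orc1* the difference from baseline was -0.27 with vehicle and -0.20 with NSC, and the permutation test was not run. The p of polymerase epsilon includes *Pole2*, which passed the filter through the 40-hour libraries. With a pseudocount of 1 in place of 0.01, which exceeds the level of many subunits, the difference turned to 0.07 for the origin recognition complex and 0.02 for polymerase epsilon with NSC.

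**Figure D3:**
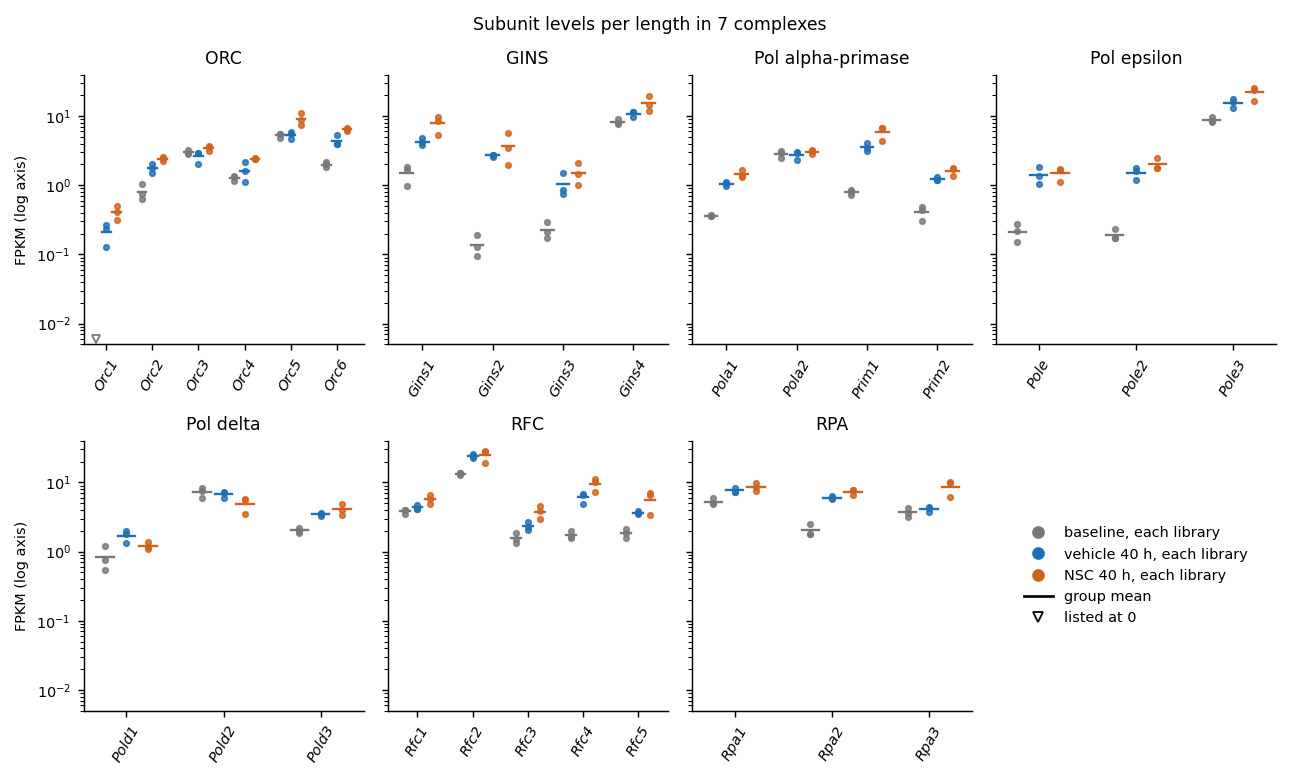
FPKM (log axis) of each subunit in 7 complexes, with a point per library, a short line for the group mean, and an open triangle for *Orc1*, listed at 0 in the baseline libraries. Low subunits such as *Gins2*, *Pole* and *Pole2* sit far below their partners in grey (baseline) and nearer to them in blue (vehicle) and orange (NSC), while *Pola2* and *Orc3* stay in place.

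Fold changes were set beside the baseline level. Over the 45 genes, Spearman's rho between mean baseline FPKM and log2 fold change was -0.85 with vehicle and -0.82 with NSC. This is a description across genes, which are not independent replicates, and the baseline libraries enter both axes and both comparisons. The 15 genes with the lowest baseline (0 to 0.413 FPKM) rose in both treatments, with medians of 2.73 and 3.24, and they include the 6 genes that passed the filter through the 40-hour libraries, so the filter sets part of this pattern. Of the next 15 genes (0.583 to 2.00 FPKM) 12 rose with vehicle and 13 with NSC, with medians of 1.52 and 1.74. Of the 15 genes with the highest baseline (2.02 to 13.4 FPKM) 7 rose with vehicle and 12 with NSC, with medians of 0.53 and 0.79.

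**Figure D4:**
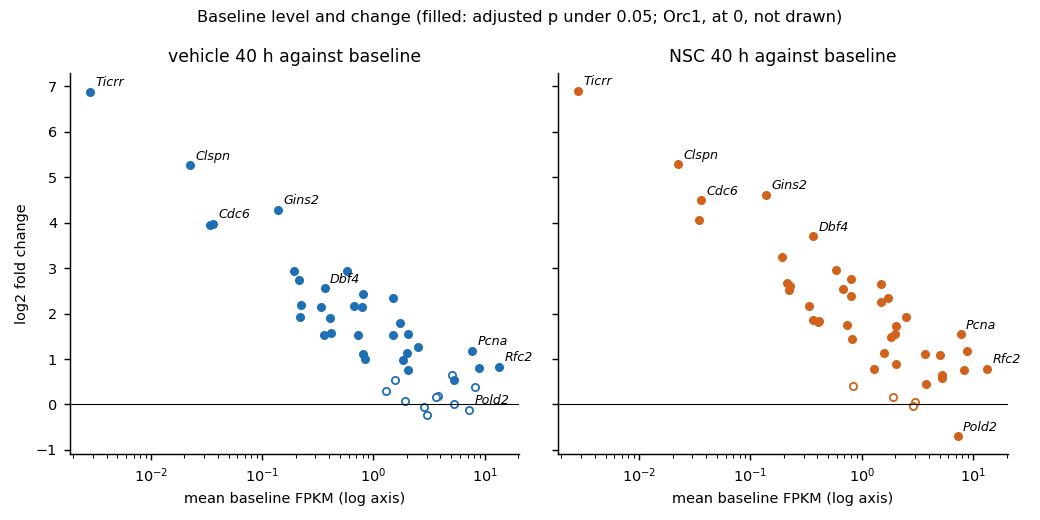
Log2 fold change from baseline (vertical axis) against mean baseline FPKM (log axis) for 44 genes, with vehicle on the left and NSC on the right; filled points passed the test and *Orc1*, at 0, is not drawn. Points fall from *Ticrr* at the upper left to values near 0 on the right, with *Pcna* and *Rfc2* still above 0 at high baseline level.

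Between NSC-treated and vehicle-treated remnants at 40 hours none of the 45 genes passed the test with edgeR. Over all genes tested 0 were higher (0%) and 6 were lower (0.0399%). At an unadjusted p under 0.05, 11 of the 45 were higher (9.3% of all genes) and 1, *Pold2*, was lower (10.2% of all genes), and the DESeq2 alternative called 3 of the 45 higher (2.08% of the genes to which it gave an adjusted p), namely *Orc5*, *Rpa3* and *Tipin*. The log2 fold change was positive for 39 genes and negative for 6, with a median of 0.33 against 0.015 over all genes. When libraries were scaled by totals alone, the median of all genes moved from 0.015 to 0.142, that of the 45 genes was 0.45, and *Pole*, *Rfc2*, *Lig1* and *Timeless* turned from negative to positive. The groups did not overlap, with NSC higher, for 7 genes (10.3% of all genes), *Orc1*, *Orc5*, *Pola1*, *Pcna*, *Rpa3*, *Tipin* and *Wdhd1*, and with NSC lower for 2, *Pold1* and *Pold2* (12.2% of all genes).

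The 5 genes with the smallest unadjusted p in this comparison were all higher with NSC and act at different steps of replication. *Rpa3* had a log2 difference of 0.95 (95% interval 0.43 to 1.47, edgeR adjusted p = 0.0949, and 0.0112 with DESeq2). *Orc5* had a difference of 0.63 (0.26 to 1.01, adjusted p = 0.102) and *Tipin* of 0.66 (0.25 to 1.08, adjusted p = 0.117). *Pcna* had a difference of 0.37 (0.10 to 0.63) and *Prim1* of 0.62 (0.16 to 1.07), both with an adjusted p of 0.15. In *Rpa3*, *Orc5*, *Tipin* and *Pcna* every NSC library was above every vehicle library, and in *Prim1* NSC replicate 1, at 15.3 CPM, lay within the vehicle range. The genes nearest to 0 were *Pola2*, *Ticrr*, *Clspn*, *Chaf1a* and *Chaf1b*, each at 0.02, with intervals that reached at most 1.02 (*Ticrr*) upward and -0.97 (*Ticrr*) downward.

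*Pold1* and *Pold2* had the lowest differences of the 45, -0.60 (95% interval -1.20 to 0.00, edgeR adjusted p = 0.258) and -0.58 (-1.06 to -0.10, adjusted p = 0.187). Every NSC library was below every vehicle library for both, while *Pold3* was at 0.12 (-0.27 to 0.50). *Pold4*, the other subunit, which is not among the 45, was at -0.58 (SE 0.17, adjusted p = 0.12). The other negative values among the 45 were -0.09 (*Timeless*), -0.06 (*Pole*), -0.05 (*Lig1*) and -0.04 (*Rfc2*). Neither *Pold1* nor *Pold2* passed the adjusted test, and neither passed it under any of the alternatives tried.

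NSC replicate 1 stood apart from the other NSC libraries in these genes. It was the lowest NSC library for 36 of the 45 (80%), against 41% of all genes tested, above every vehicle library in 11 genes (31.16% of all genes) and below every one in 12 (36.26% of all genes). Of 27 other replication genes, described further on, it was the lowest NSC library for 15 and the highest for 4, against 41% and 37% of all genes. NSC replicate 2 was above every vehicle library in 36 genes (33.54% of all genes) and NSC replicate 3 in 27 (34.5%), and both were in 25 (21.75%). The score of a library, the median over the 45 genes of log2 CPM minus the gene's mean, was 0.41 in NSC replicate 1 and 0.89 and 0.80 in the others, with 0.29, 0.45 and 0.33 with vehicle and -1.13, -1.02 and -1.02 at baseline. Without NSC replicate 1, 11 of the 45 genes passed the edgeR test as higher with NSC (3.73% of all genes): *Dbf4* (1.57, adjusted p = 0.000682), *Rpa3* (1.17, adjusted p = 0.00646), *Orc5*, *Gmnn*, *Gins1*, *Prim1*, *Pole3*, *Rfc3*, *Rfc4*, *Rfc5* and *Tipin*, the last 9 with log2 differences from 0.57 to 0.97. Leaving out any other single library gave no call among the 45.

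Markers of other liver cells also moved with that library. All 6 endothelial, all 6 macrophage and all 7 stellate cell markers were highest in NSC replicate 1 among the NSC libraries, while NSC replicate 1 was the highest for 37% of all genes tested. Their summed CPM was 226, 447 and 439 in NSC replicate 1, against 127 and 143 (endothelial), 278 and 293 (macrophage) and 242 and 259 (stellate) in NSC replicates 2 and 3. With vehicle these sums were 110 to 177, 141 to 258 and 376 to 509, and none of these markers was at 0 in an NSC library. Of 8 lymphocyte markers 5 were highest and 1 lowest in NSC replicate 1 (summed CPM 16.4, against 9.07 and 8.45), and 1, *Cd3e*, was at 0 in NSC replicate 2. Of 5 cholangiocyte markers 2 were highest and 1 lowest (82.8, against 121 and 79.0), and of 8 erythroid markers 1 was highest and 3 lowest (86.7, against 118 and 168). Of 8 hepatocyte markers 2 were highest and 5 lowest, with sums of 101093 CPM in NSC replicate 1 and 106470 and 115252 in the others. The part of these markers in the result was not tested.

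**Figure D5:**
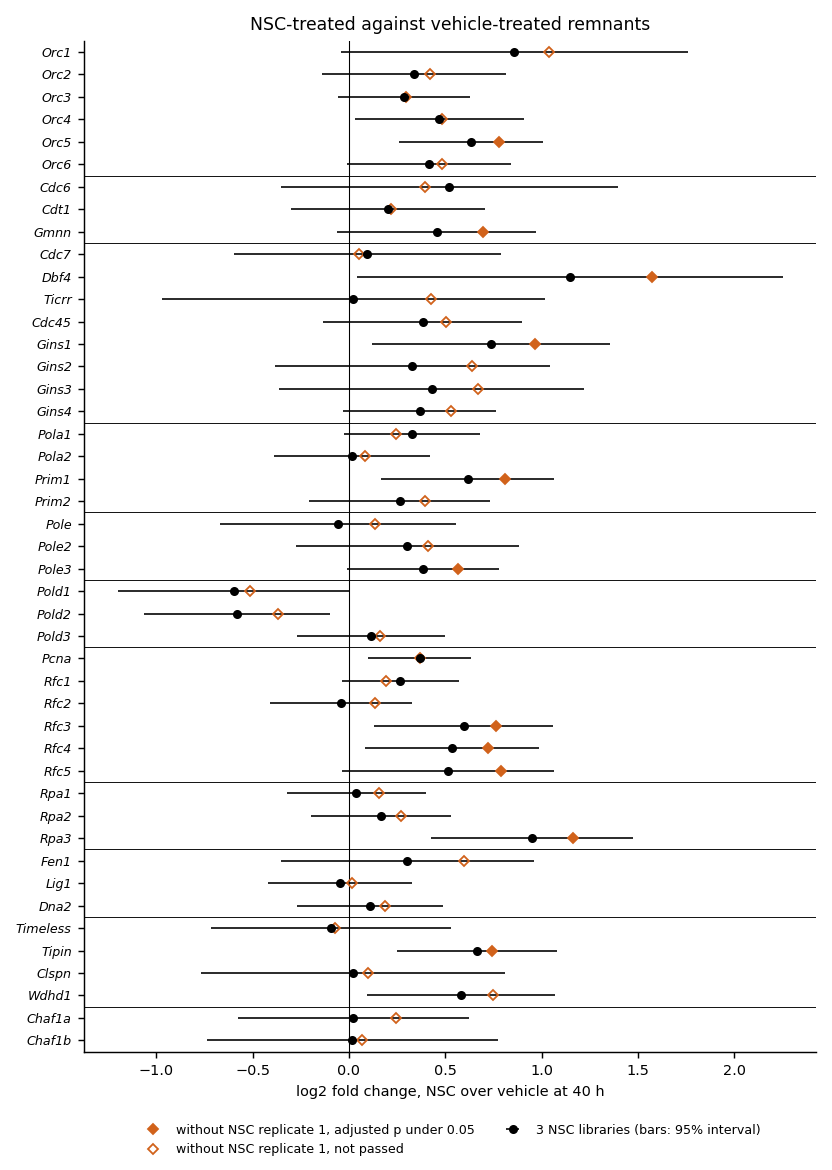
Log2 fold change of NSC over vehicle at 40 hours for each gene, with black points and 95% intervals from all 3 NSC libraries and orange diamonds from the fit without NSC replicate 1, filled where adjusted p was under 0.05. No black point passed the test, 11 diamonds did, and *Dbf4* has the largest value of both kinds (1.15 and 1.57), while *Pold1* and *Pold2* lie left of 0.

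Other replication genes, 27 in number and listed for comparison, included the MCM helicase, topoisomerases, checkpoint and histone chaperone genes. With vehicle 20 rose and 1 fell, with a median of 0.97, and with NSC 19 rose and 1 fell, with a median of 1.51. The largest rise in both was *Top2a*, topoisomerase II alpha, by 6.51 and 7.03 on the log2 scale. The one that fell was *Mcm10*, which acts in helicase activation, at 64.5, 107 and 68.3 CPM at baseline, 18.5, 20.0 and 27.9 CPM with vehicle and 17.4, 29.0 and 41.6 CPM with NSC, or by 1.86 (SE 0.32) and 1.45 (SE 0.32). *Mcmbp*, *Pole4*, *Tonsl*, *Rnaseh2a* and *Rnaseh2c* passed in neither treatment, *Asf1a* did not pass with vehicle, and *Pold4* and *Recql4* did not pass with NSC. In the direct comparison none of the 27 passed, 6 were higher and 1 was lower at an unadjusted p under 0.05, and the median was 0.20.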

How the data were processed

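RNA from whole liver was sequenced as stranded mRNA libraries (TruSeq) from 9 samples in 3 groups of 3, grouped by their titles. Per the labels and methods, the authors aligned reads with STAR 2.6.1 within MAP-RSeq and assigned them to genes with featureCounts of Subread 1.5.1. The deposited table gives raw counts per gene and library. The deposited FPKM were computed by the authors from the same counts, gene length and library total, as recomputation showed. The submitters' notes name a human genome build, but identifiers and coordinates are mouse ones, and all 45 identifiers are in GENCODE M21 (GRCm38). Whether counting used strand is not given in the sources used here, and 14 of the 45 genes share exon positions with another listed gene.

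Counts were fitted in R 4.3.3 with edgeR 4.0.16 and limma 3.58.1 (TMM factors, filterByExpr, robust quasi-likelihood test, 1 fit of all 9 libraries, group as the only term), with p adjusted by Benjamini-Hochberg over 15024 genes. The study used edgeR with the same threshold on adjusted p, without naming its test. DESeq2 1.42.0, other scalings, filters and fits, and leaving out each library were alternatives. In data simulated for the vehicle comparison over 15024 genes, the test found 57 of 100 genes at a fold of 2 and 86 of 100 at a fold of 4, beside 12 false calls. Only these genes were changed, all upward, from each gene's mean over all 9 libraries. In the real comparison 12.7% of genes rose and 11% fell, so the simulated shares do not give the power of the real test. The chi-square per gene between libraries of a group showed no library to be a copy of another. Subunit levels used log2(FPKM + 0.01), with the exact permutation test in scipy 1.17.1. Promoters were matched by symbol. Python 3.11.15 (pandas 2.3.3, matplotlib 3.10.9) served for tables and figures.

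The members and lists were chosen with earlier results of these data known. The call of each of the 45 genes is given, and values per library for the gene with the largest and the smallest vehicle change in each role, for *Pcna*, and for the 5 genes with the smallest p between treatments. *Dbf4* was added after its values were seen.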

Additional observations from a re-analysis of the deposited data

How the results depend on the processing

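The counts of the 45 genes that rose were 28 to 36 with vehicle and 34 to 40 with NSC over all alternatives, including 34 and 40 with DESeq2. Requiring at least 10 counts in every library dropped 6 of the 45 genes, those with low baseline counts, so the counts under that alternative are out of fewer genes. Its median log2 fold change was 1.20 with vehicle and 1.57 with NSC. With 1 library left out the vehicle median was 1.39 to 1.59. At an adjusted p under 0.01, 1726, 2975 and 0 of all genes passed in the vehicle, NSC and direct comparisons. Leaving out 1 library gave 2285 to 4538 genes for vehicle against baseline. The direct comparison depended most on the setting. Over all genes it gave 1 with library totals alone, 221 with every gene of at least 1 count, 725 with DESeq2 and 0 to 994 with 1 library left out, and of the 45 it called 3 with DESeq2 and 0 to 11 with 1 library left out. At unadjusted p under 0.05, 21 of the 45 passed with library totals alone and 5 to 19 with 1 library left out. The cause was not tested.

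The labels do not state whether same-numbered baseline and vehicle-treated libraries come from the same mice. Correlations of deviations were -0.048 to 0.13 between same-numbered libraries and -0.115 to 0.066 between different-numbered ones. Not all same-numbered values were over 0.1, so the numbers were not used as pairs. That cutoff cannot decide whether same-numbered libraries share a mouse or a cohort. A replicate block gave 35, 40 and 0 of the 45 genes and 11 genes over all in the direct comparison, and *Gmnn* passed with vehicle (adjusted p = 0.0487).

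The difference in subunit spread from baseline shrank with the pseudocount, which is larger than many subunit levels. With 0.1 it was -0.52 (vehicle) and -0.55 (NSC) for the origin recognition complex, -0.98 and -0.94 for GINS, and -0.89 and -0.75 for polymerase epsilon. With 1 it was -0.063 and 0.069 for the origin recognition complex, -0.33 and -0.23 for GINS, -0.13 and -0.0071 for polymerase alpha-primase, -0.15 and 0.021 for polymerase epsilon, -0.35 and -0.35 for polymerase delta, 0.074 and -0.076 for replication factor C, and -0.39 for replication protein A with NSC. Without *Orc1*, an alternative chosen after seeing the data, it was -0.27 and -0.20 for the origin recognition complex. Precision rests on 3 libraries per group, and *Orc1*, *Ticrr*, *Cdc6*, *Cdc7* and *Clspn* have few baseline counts, so the size of their rise is uncertain.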
